A study of Mus musculus with 12 samples.

Results

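The BCL2 family decides whether mitochondria of a stressed cell stay intact, and transcripts of 10 of its members were followed here in RAW264.7 cells, a mouse macrophage line. The members were taken by gene symbol from a table of raw counts that lists 32688 genes, and all 10 passed the filter on low counts. They comprise 6 killers (the BH3-only genes Bbc3, Pmaip1, Bid and Bcl2l11 and the effectors Bax and Bak1) and 4 protectors (Bcl2, Bcl2l1, Mcl1 and Bcl2a1b). RNA came from 4 groups of 3 libraries each. Null control cells carry the genotype label Null, are called wild-type in the text of the study and received no etoposide. Null etoposide cells were exposed for 8 h to 100 µM etoposide, a topoisomerase II poison that leaves double-strand breaks in DNA. TFEB/TFE3 DKO cells, in which both transcription factors were targeted by CRISPR, formed the DKO control and DKO etoposide groups under the same conditions. The methods describe a single DKO line, so the effect of genotype and other differences between lines cannot be told apart. The study describes its etoposide-treated samples as independent, but the labels do not say that libraries of a group came from separate cultures, so p-values measure the spread between these libraries, which may be technical.

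In the mitochondrial pathway of apoptosis, BH3-only proteins act as sensors of damage. They bind and block the protectors or engage the effectors directly, and activated BAX and BAK open the outer mitochondrial membrane so that cytochrome c escapes and caspases are switched on. Bbc3 (PUMA), Pmaip1 (NOXA) and Bax are established transcriptional targets of p53, the transcription factor that DNA breaks activate. TFEB and TFE3 are best known as regulators of lysosomal and autophagy genes, which they reach through E-box sequences with the core CACGTG.

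Because p53 and TFEB/TFE3 are the regulators that the study concerns, the letters of the promoter windows were searched for the CACGTG core and for the p53 half-site. The windows are those of RefSeq on GRCm38.p6, from 250 bases before to 50 bases after an annotated start, and 9 of the 10 members matched with 14 windows; Pmaip1 was not in that table. CACGTG reads the same on both strands, and the p53 half-site was searched on both strands. CACGTG was found in 2 of the 14 member windows, 1 of Bbc3 and 1 of Bax, and in 7.15% of all 32851 windows. The p53 half-site was found in 1 member window, that of Bax, and in 8.36% of all windows. The stretches that hold the matches are shown 5′ to 3′ on the strand of the gene, with the matching bases in capitals.
Bbc3, chr7:16310355-16310384, plus strand, match 64 bases before 1 of its starts: gcggggcgggcgCACGTGgcggcgtcgagg
Bax, chr7:45466890-45466919, minus strand, match 9 bases before the start: agcgatgatgatCACGTGactagtcctgcg
Bax, chr7:45466849-45466875, minus strand, match 36 bases after the start: ttgcggggcaccCACGTGagggccgca
Bax, chr7:45467080-45467109, minus strand, p53 half-site 201 bases before the start: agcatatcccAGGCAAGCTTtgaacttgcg
These matches describe letters in a window, and occupancy was not measured here. The windows do not cover introns or distal sites.

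Library totals ran from 29837255 to 61809316 counts, and the 10 members together took 0.106% to 0.214% of the counts of a library. Levels below are CPM, counts relative to the scaled size of the library, and levels of different genes are set against each other only per kilobase of exon (RPKM). Tfe3 stood at 89.4 to 119 CPM in Null libraries and 31.5 to 42.5 CPM in DKO libraries, and Tfeb at 7.1 to 17.2 and 3.14 to 5.25 CPM, without overlap between genotypes for either gene. Tfeb itself was lower in Null cells after etoposide, at 7.1 to 7.95 CPM. The titles of the 3 DKO etoposide libraries hold the word MEFs, which stands for mouse embryonic fibroblasts, whereas their other labels say RAW264.7. In these libraries 8 macrophage markers summed to 4580 to 4780 CPM and 8 fibroblast markers to 1.01 to 1.2 CPM, next to 4190 to 5130 and 0.152 to 2.04 CPM in the other libraries. Of the fibroblast markers, 1 had no count in any DKO etoposide library, against 7 for Null control, 6 for DKO control and 1 for Null etoposide libraries. The sums hide macrophage markers that moved apart, named here after their values were seen. Fcgr1, an Fc receptor, stood at 5.13 ± 0.364 CPM in DKO and 37 ± 0.595 CPM in Null etoposide cells (7.15-fold lower, adjusted p = 7.25e-11), and Spi1, which encodes the transcription factor PU.1, was 2.01-fold higher there (adjusted p = 7.16e-07). Their part in the results below was not tested.

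Gene positions below are those of GENCODE M21 on GRCm38. Responses to etoposide were first counted within each genotype. Of the 10 members, 5 rose and 3 fell in Null cells, where 20.9% of the 18066 genes tested rose and 18.7% fell (39.6% called in all). In DKO cells, 3 members rose and 2 fell, against 20.2% and 19.1% of the genes tested (39.3% in all). The responses were set against each other by the interaction, the DKO response less the Null response. It was called for 3 members, Bbc3, Pmaip1 and Bcl2l11, each a BH3-only gene with a smaller log2 difference in DKO cells. Of the 3, only Bcl2l11 had a called rise in DKO cells. Over all genes the interaction was called lower for 6.39% and higher for 3.07% (9.45% in all). In bulk RNA, fewer cells that express a gene and less RNA per cell cannot be told apart.

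**Figure D1:**
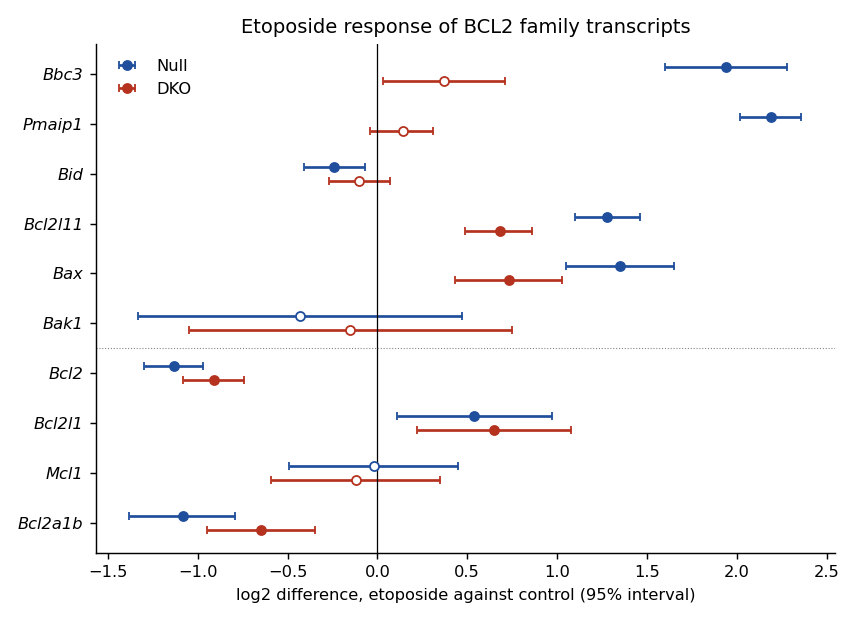
Etoposide response of each member as the log2 difference from control cells (horizontal axis), in Null (blue) and DKO (red) cells, with 95% intervals from the fit of 3 libraries per group. Filled points passed an adjusted p of 0.05; killers stand above the dotted line and protectors below it. The wide gaps between colours are those of Bbc3 (1.94 and 0.37) and Pmaip1 (2.19 and 0.14).

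Pmaip1 (chr18:66458533-66465565, plus strand) encodes NOXA, a BH3-only protein that binds mainly MCL1. Its levels were 17.1, 16.8 and 18.4 CPM in Null control libraries and 84.4, 75.7 and 79.4 CPM after etoposide. In DKO cells they were 21.8, 21.8 and 23.1 CPM without and 22.7, 26.4 and 24.3 CPM with the drug. Every Null etoposide library stood above every other library, while the DKO groups overlapped. The Null response was a log2 difference of 2.19 ± 0.0791 (SE), or 4.57-fold (adjusted p = 1.35e-09, limma), and the DKO response was 0.14 with a 95% interval from -0.04 to 0.31 (adjusted p = 0.199). With a correction for GC content and length the DKO response of Pmaip1 was 0.30 and called (adjusted p = 0.00507). The interaction was -2.05 ± 0.112 (adjusted p = 1.14e-07), and it lay lower than that of all but 1.18% of the genes tested. Before treatment Pmaip1 was 1.27-fold higher in DKO than in Null cells (adjusted p = 0.00708), a call lost when only the control groups were fitted (0.34, adjusted p = 0.0687). After etoposide it was lower in DKO cells.

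Bbc3 (chr7:16308393-16318205, plus strand) encodes PUMA, which binds all the main protectors. Null control libraries held 25.7, 16.9 and 15.4 CPM and Null etoposide libraries 66.7, 78.5 and 72.7 CPM. DKO control libraries held 22.1, 24.3 and 24.6 CPM and DKO etoposide libraries 32.3, 28 and 31.6 CPM. The highest level was again in Null etoposide cells, apart from all other libraries; the DKO etoposide libraries lay above those of DKO control cells by a small margin. The log2 difference was 1.94 ± 0.156 in Null cells (3.84-fold, adjusted p = 1.06e-06) and 0.37 ± 0.156 in DKO cells (adjusted p = 0.0812). The interaction was -1.57 ± 0.221 (adjusted p = 0.000545). The DKO response was called without Null control replicate 1 (0.37, adjusted p = 0.00537) and without Null control replicate 3 (0.37, adjusted p = 0.0489), and also when only the DKO groups were fitted (0.36, adjusted p = 0.0259). With the correction for GC content and length it was 0.12 (adjusted p = 0.401). After etoposide, DKO cells held 2.37-fold less Bbc3 than Null cells (adjusted p = 5.27e-05). In control cells the difference was 0.33 with an interval from -0.01 to 0.67 (adjusted p = 0.184), and it was called without Null control replicate 1 (0.55, adjusted p = 0.00175).

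Bcl2l11 (chr2:128126038-128162547, plus strand) encodes BIM, a BH3-only protein known from the death of immune cells. It rose in both genotypes, from a higher start in DKO cells. It was measured at 12.2, 11.5 and 11.8 CPM in the Null control libraries, and the DKO control libraries held 20.9, 19.3 and 18.6 CPM. After etoposide the values were 28.5, 26.7 and 31.4 CPM in Null cells and 32, 32.8 and 29.4 CPM in DKO cells. The control groups did not overlap, and the etoposide groups did. Etoposide raised Bcl2l11 by 1.28 ± 0.0842 in Null cells (2.43-fold, adjusted p = 1.95e-07) and by 0.68 ± 0.0842 in DKO cells (1.60-fold, adjusted p = 4.1e-05). The interaction was -0.61 ± 0.119 (adjusted p = 0.00618), beside a control difference of 0.73 between DKO and Null cells (1.66-fold, adjusted p = 4.25e-05) and a difference after etoposide of 0.12 with an interval from -0.06 to 0.31 (adjusted p = 0.298).

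Bid (chr6:120891930-120916853, minus strand), the BH3-only gene whose product caspase-8 cleaves to join the death receptor route to mitochondria, moved little. Its levels were 80.5, 69.1 and 69.7 CPM in the Null control libraries, 75.8, 82 and 84.2 CPM in those of DKO control cells, 60.7, 65 and 59.7 CPM in Null etoposide cells and 75.1, 71.7 and 78.6 CPM in DKO etoposide cells. The Null etoposide libraries were the lowest of the 12. The fall in Null cells was 1.18-fold (log2 difference -0.24 ± 0.0788, adjusted p = 0.0293), and the DKO response was -0.10 with an interval from -0.27 to 0.07 (adjusted p = 0.342). DKO cells held 1.22-fold more Bid than Null cells after etoposide (adjusted p = 0.0152), and the interaction was not called (0.14, adjusted p = 0.576). The call in Null cells was lost without Null control replicate 1 (-0.17, adjusted p = 0.100) and without Null etoposide replicates 1 (-0.23, adjusted p = 0.0879) or 3 (-0.22, adjusted p = 0.103). The call between genotypes after etoposide was lost without Null etoposide replicates 1 (0.27, adjusted p = 0.055) or 3 (0.26, adjusted p = 0.0645) and without DKO etoposide replicate 3 (0.25, adjusted p = 0.0603). Reads of Bcl2l13, which lies on the opposite strand over part of the Bid exons, could make up at most 5.1% of the Bid counts.

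**Figure D2:**
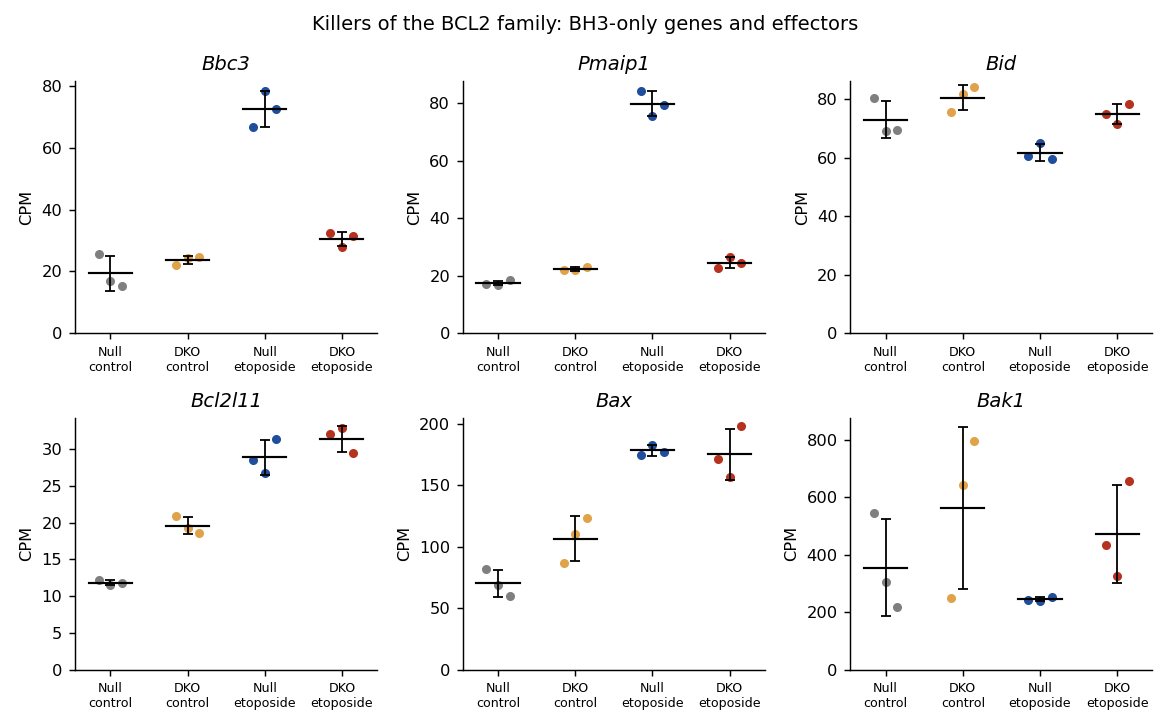
CPM of the 6 killers in each library (points) by group, with the mean (line) and SD (bar) of 3 libraries; each vertical axis starts at 0. Bbc3 and Pmaip1 stood apart in Null etoposide cells, Bcl2l11 and Bax overlapped between genotypes after etoposide, and Bak1 varied between 217 and 796 CPM, with control groups that overlapped and etoposide groups that did not.

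Of the 2 effectors, Bax rose after etoposide in both genotypes and Bak1 had no called change. Bax (chr7:45461697-45466898, minus strand) encodes the cytosolic effector that moves to mitochondria to form pores. It stood at 82.2, 68.6 and 60.3 CPM in the Null control libraries, and at 86.8, 110 and 123 CPM in those of DKO control cells. With etoposide it stood at 175, 183 and 177 CPM in Null cells and 171, 157 and 198 CPM in DKO cells. All DKO control libraries lay above all Null control libraries, and the etoposide groups overlapped. The rise was 1.35 ± 0.138 in Null cells (2.55-fold, adjusted p = 8.26e-06) and 0.73 ± 0.138 in DKO cells (1.66-fold, adjusted p = 0.00112). DKO cells started 1.51-fold higher (0.59, adjusted p = 0.00837) and differed from Null cells after etoposide by -0.03 with an interval from -0.33 to 0.27 (adjusted p = 0.901). The interaction of -0.62 ± 0.195 was close in size to that of Bcl2l11 but missed the threshold (adjusted p = 0.0723). It was called without Null control replicate 1 (-0.74, adjusted p = 0.0274) and without DKO control replicate 1 (-0.77, adjusted p = 0.0107). Up to 14% of the Bax counts could be reads of an overlapping gene on the same strand, Gm45808.

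Bak1 (chr17:27019810-27029009, minus strand) encodes BAK, the effector that resides in the mitochondrial membrane. Its levels were 545, 304 and 217 CPM in the Null control libraries, and 250, 641 and 796 CPM in those of DKO control cells. After etoposide they were 243, 239 and 254 CPM in Null cells and 434, 325 and 657 CPM in DKO cells. Control groups overlapped widely, and after etoposide all 3 DKO libraries exceeded all 3 Null libraries. No comparison of Bak1 was called: the difference after etoposide was 0.88 with an interval from -0.02 to 1.78 (adjusted p = 0.124), and the responses were -0.43 (interval from -1.33 to 0.47) in Null and -0.15 (interval from -1.05 to 0.75) in DKO cells. It was called without DKO control replicate 1, both in control cells (1.12, adjusted p = 0.0371) and after etoposide (0.89, adjusted p = 0.0444), and after etoposide also when only those 2 groups were fitted (0.88, adjusted p = 0.0406). Over replicates its log2 values had an SD of 0.673 for Null control, 0.89 for DKO control and 0.51 for DKO etoposide cells, the largest of the members in each, whereas the median over all genes was 0.209, 0.235 and 0.155.

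The protectors did not move as a block. Etoposide lowered Bcl2 and Bcl2a1b, raised Bcl2l1 and left Mcl1 without a called change. The interaction was called for 0 of the 4, against 9.45% of all genes tested. Their median response was -0.55 in Null and -0.38 in DKO cells on the log2 scale, next to 1.32 and 0.25 for the killers and 0.03 in each genotype over all genes.

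Bcl2 (chr1:106538178-106714274, minus strand), the founding protector, stood at 16.5, 17 and 16.6 CPM in the Null control libraries, and at 14.1, 13.9 and 13.2 CPM in those of DKO control cells. After etoposide it stood at 7.33, 7.73 and 7.7 CPM in Null cells and 7.27, 7.45 and 7.15 CPM in DKO cells. Libraries with and without etoposide did not overlap in either genotype. The fall was 2.19-fold in Null cells (-1.13 ± 0.0764, adjusted p = 2.38e-07) and 1.88-fold in DKO cells (-0.91 ± 0.0764, adjusted p = 1.28e-06), and the interaction was 0.22 with an interval from -0.01 to 0.46 (adjusted p = 0.269). Control DKO cells held 1.21-fold less Bcl2 than control Null cells (-0.28, adjusted p = 0.0209). That call was lost without Null control replicates 2 (-0.27, adjusted p = 0.0754) or 3 (-0.29, adjusted p = 0.0505) and without DKO control replicates 2 (-0.29, adjusted p = 0.0514) or 3 (-0.25, adjusted p = 0.0703).

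Bcl2a1b (chr9:89199209-89207827, plus strand), a copy of the mouse A1 gene, encodes a protector of blood cells induced by NF-κB. Its levels were 15.8, 16.5 and 20.4 CPM in the Null control libraries, and 16.9, 14.4 and 12.8 CPM in those of DKO control cells. They were 7.53, 8.77 and 8.41 CPM in Null etoposide cells and 9.32, 10.5 and 8.19 CPM in DKO etoposide cells. Every etoposide library lay below every control library. The fall was 2.12-fold in Null cells (-1.08 ± 0.137, adjusted p = 4.94e-05) and 1.57-fold in DKO cells (-0.65 ± 0.137, adjusted p = 0.00228), with an interaction of 0.43 ± 0.193 that was not called (adjusted p = 0.225). These values are uncertain. Of 743 stretches of 75 bases in Bcl2a1b transcripts, 43.5% also occur in another Bcl2a1 copy, and 49.1% of its exon bases lie within Gm29094 on the same strand, whose reads could make up to 61.5% of its counts. The copy Bcl2a1d fell by 0.84 in Null cells (adjusted p = 0.000134) and by 0.39 in DKO cells (adjusted p = 0.0208). The call in DKO cells was lost without DKO etoposide replicates 1 (-0.36, adjusted p = 0.0755) or 3 (-0.36, adjusted p = 0.0628). Bcl2a1a, at or below 1.69 CPM in every library, had differences of -1.22 (adjusted p = 0.0467) and -0.62 (adjusted p = 0.307), and the former was lost in 13 of its 21 alternatives, 9 of which left out 1 library (any of Null control or Null etoposide, DKO control replicate 2, or DKO etoposide replicates 1 or 3), with differences of -1.28 to -1.13. Between genotypes Bcl2a1a was lower in DKO control cells (-1.48, adjusted p = 0.0346), a call lost in 11 alternatives, 9 of which left out 1 library (any of Null control or Null etoposide, DKO control replicates 2 or 3, or DKO etoposide replicate 1), with differences of -1.52 to -1. Bcl2a1c held 2 counts over the 12 libraries.

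Bcl2l1 (chr2:152780668-152831728, minus strand), which encodes BCL-XL, stood at 58.5, 41.7 and 38 CPM in the Null control libraries, and at 48.7, 76.2 and 80.6 CPM in those of DKO control cells. After etoposide it stood at 67.6, 60.1 and 70.3 CPM in Null cells and 104, 90.4 and 123 CPM in DKO cells. The DKO etoposide libraries were the highest of the 12. DKO cells exceeded Null cells after etoposide 1.59-fold (0.67 ± 0.198, adjusted p = 0.0204), and the responses were 0.54 in Null (adjusted p = 0.0471) and 0.65 in DKO cells (adjusted p = 0.0208), with an interaction of 0.11 and an interval from -0.50 to 0.72. Of these calls, that in Null cells was lost in 13 of 21 alternatives. It was 0.27 (adjusted p = 0.286) with the correction for GC content and length, and the call was also lost without Null control replicates 2 (0.48) or 3 (0.42), DKO control replicate 2 (0.54), Null etoposide replicates 1 (0.52), 2 (0.61) or 3 (0.49), and DKO etoposide replicates 1 (0.54) or 2 (0.53). That in DKO cells was lost without DKO control replicate 1 (0.41, adjusted p = 0.0717) and without DKO etoposide replicates 1 (0.66, adjusted p = 0.0547) or 3 (0.53, adjusted p = 0.0819). That between genotypes after etoposide was lost without Null etoposide replicates 1 (0.69, adjusted p = 0.0516) or 2 (0.60, adjusted p = 0.0772) and without DKO etoposide replicates 1 (0.68, adjusted p = 0.0546) or 3 (0.56, adjusted p = 0.0848). In control cells the genotype difference of 0.56 was not called (adjusted p = 0.0696). It was called by DESeq2 (0.56, adjusted p = 0.0461), without Null control replicate 1 (0.75, adjusted p = 0.0176) and without DKO control replicate 1 (0.80, adjusted p = 0.00432).

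Mcl1 (chr3:95658788-95663176, plus strand), a protector with a short-lived protein and the partner of NOXA, had the highest mean RPKM of the 10 members in all 4 groups. It stood at 836, 628 and 587 CPM in the Null control libraries, and at 565, 914 and 1100 CPM in those of DKO control cells. After etoposide it stood at 692, 643 and 663 CPM in Null cells and 703, 677 and 934 CPM in DKO cells. Groups overlapped in every comparison. The Null response was -0.02 with an interval from -0.49 to 0.45, the DKO response -0.12 with an interval from -0.59 to 0.35, and no comparison was called. Without DKO control replicate 1, the difference between genotypes in control cells was called (0.58, adjusted p = 0.0203). Changes smaller than these intervals could not be detected in these libraries.

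**Figure D3:**
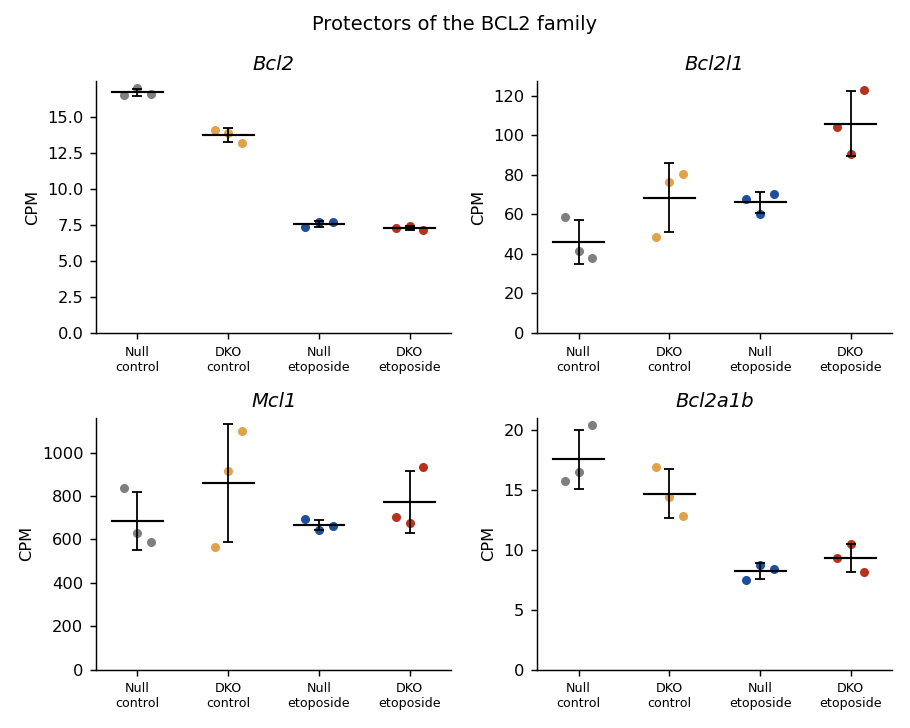
CPM of the 4 protectors in each library (points) by group, with the mean (line) and SD (bar) of 3 libraries; each vertical axis starts at 0. Bcl2 and Bcl2a1b were lower in all etoposide libraries than in all control libraries, Bcl2l1 was highest in DKO etoposide cells, and the Mcl1 groups overlapped.

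Part of the spread of these genes was shared. Against their group means, Bak1, Bcl2l1 and Mcl1 were all high in Null control replicate 1 (by 0.72, 0.37 and 0.31 on the log2 scale), DKO control replicate 3 (0.66, 0.27 and 0.41) and DKO etoposide replicate 3 (0.54, 0.23 and 0.29). All 3 were low in DKO control replicate 1 (-1.01, -0.46 and -0.55). The Null etoposide libraries varied least, with deviations of these 3 genes between -0.13 and 0.09. The part of library preparation or culture in this spread was not tested.

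The genotypes were also compared directly, without and with the drug. In control cells 3 members were higher in DKO cells (Pmaip1, Bcl2l11 and Bax, all killers) and 1 was lower (Bcl2, a protector), against 10.9% of all genes called higher and 8.39% called lower (19.3% in all). After etoposide, 2 were higher (Bid and Bcl2l1) and 2 were lower (Bbc3 and Pmaip1), against 15.9% and 17.8% (33.6% in all). The median difference of the killers was 0.47 in control cells and 0.05 after etoposide, that of the protectors was 0.02 and 0.19, and that of all genes was 0 and -0.01. Not called were Bid in control cells (0.14, adjusted p = 0.253), Bcl2 after etoposide (-0.06, adjusted p = 0.614), and Bcl2a1b in control cells (-0.26, adjusted p = 0.235) and after etoposide (0.17, adjusted p = 0.367). The same held for Mcl1 (0.30 and 0.20, adjusted p = 0.416 and 0.529) and for Bak1 in control cells (0.61, adjusted p = 0.378). The comparisons share libraries with each other and with the responses. In the control comparison, the call of Bax (0.59, adjusted p = 0.0755) and that of Pmaip1 (0.34, adjusted p = 0.0687) were lost when only the 2 control groups were fitted, as was that of Bcl2 (-0.29, adjusted p = 0.115), which left Bcl2l11.

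To place killers beside protectors on one scale, the summed RPKM of each class was taken per library. The 6 killers over the 4 protectors gave a log2 ratio of -0.07 ± 0.275 (SD, n = 3) for Null and 0.23 ± 0.185 for DKO control cells, and of 0.44 ± 0.0656 for Null and 0.43 ± 0.134 for DKO cells with etoposide. This ratio did not separate the genotypes after etoposide, where it ran from 0.37 to 0.50 in Null and from 0.28 to 0.53 in DKO libraries. A few genes set it: Mcl1 made up 83% to 90.3% of the protector sum and Bak1 32.9% to 72.7% of the killer sum.

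The BH3-only genes alone gave another order. Their sum over that of the protectors was -2.63 ± 0.0755 for Null and -2.64 ± 0.372 for DKO control cells, and -1.38 ± 0.0755 for Null and -2.42 ± 0.202 for DKO cells with etoposide. Null etoposide libraries, at -1.45 to -1.30, stood apart from the other 9, at -2.95 to -2.23. The DKO etoposide libraries, at -2.65 to -2.29, overlapped with both control groups. The Null etoposide libraries were also those with the highest share of mitochondrial counts, 19.4% to 21.7% against 14.1% to 18.3% in the other 9, and its part in the result was not tested. The effectors over the protectors gave means of -0.34, 0.01, -0.03 and 0.22 with the groups in that order. Bbc3 alone made up 10.7% to 12.2% of the killer sum in Null etoposide libraries and 2.55% to 5.18% in all others. These sums are transcript levels and do not measure protein.

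**Figure D4:**
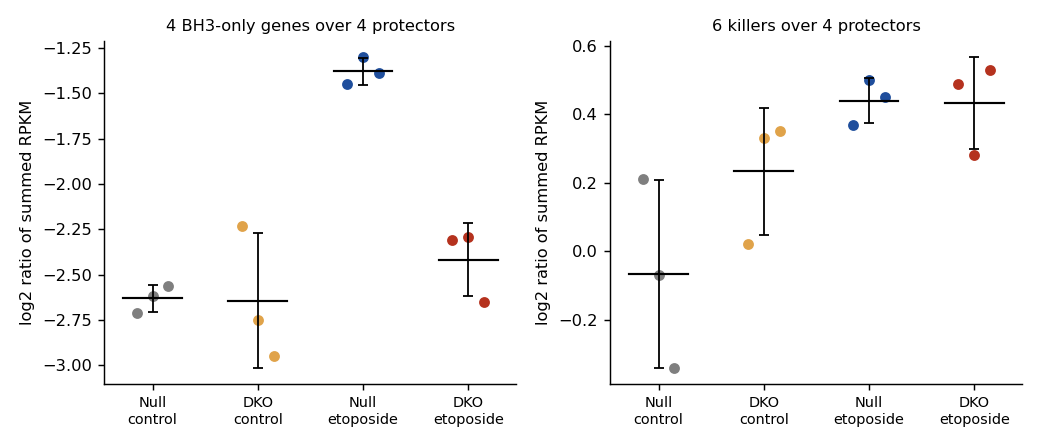
Log2 ratio of summed RPKM per library (points) for the 4 BH3-only genes over the 4 protectors (left) and all 6 killers over the 4 protectors (right), with the mean (line) and SD (bar) of 3 libraries per group. On the left the Null etoposide libraries lie at -1.45 to -1.30, above all others, and on the right the etoposide groups overlap.

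Per kilobase, the order of members within a group also changed with treatment. In Null control cells Mcl1 (200 ± 39.1 RPKM, SD) and Bak1 (148 ± 70.6) were the highest and overlapped, followed by Bax (44.6 ± 7). Bcl2a1b (21.5 ± 3.03) and Bid (20.6 ± 1.82) overlapped, as did Bcl2l1 (10 ± 2.38) and Bbc3 (9.11 ± 2.63); Pmaip1 (6.38 ± 0.315) and, without overlap, Bcl2 (1.83 ± 0.0271) and Bcl2l11 (1.47 ± 0.0396) came last. After etoposide in Null cells, Bbc3 (34.2 ± 2.79) and Pmaip1 (29.2 ± 1.61) passed Bid (17.4 ± 0.789) and Bcl2l1 (14.4 ± 1.15), and Bax (113 ± 2.91) passed Bak1 (102 ± 3.15). Up to 14% of the Bax counts could be reads of Gm45808, so its place above Bak1 is uncertain. In DKO etoposide cells Bbc3 (14.4 ± 1.08) and Pmaip1 (8.96 ± 0.683) stayed below Bid (21.2 ± 0.971) and Bcl2l1 (23 ± 3.55). In both etoposide groups Bcl2 was the lowest of the 10, at 0.829 ± 0.0241 in Null and 0.796 ± 0.0165 RPKM in DKO cells, and these values overlapped.

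The genes whose log2 CPM followed a member most closely over the 12 libraries were named by the highest Pearson correlation among all genes tested. The libraries share their groups, so such values reflect 4 group levels as much as 12 libraries. Bbc3 ran with Ypel3 (r = 0.991), Tyro3 (0.987) and Psrc1 (0.975), and Pmaip1 with Itpripl1 (0.990), Ppp1r15a and Mybl1 (both 0.977). Bcl2l11 ran with Icam1 (0.992), Plk2 (0.990) and Plcd3 (0.987), and Bid with Lfng (0.975), Sik2 (0.971) and Rreb1 (0.970). The closest genes to Bax were Fam83h (0.994), Polk (0.993) and Sbk1 (0.991), and to Bak1 they were Alg2 (0.993), Slc39a6 (0.990) and Trip6 (0.986). Among the protectors, Bcl2 ran with Cx3cr1 (0.999), Dgkg and 1700025G04Rik (both 0.993), Bcl2l1 with Slc39a1 (0.989), Agpat1 (0.986) and Kpna6 (0.980), and Mcl1 with Cflar (0.992), Tab2 (0.987) and Wdr44 (0.985). Bcl2a1b ran with Gm29094 (0.999), which overlaps its exons, and with Plcg2 (0.988) and Gmds (0.987). Within the family, Bbc3 and Pmaip1 correlated at 0.95, Bcl2 and Bcl2a1b at 0.948 and Bak1 and Mcl1 at 0.939. Bax ran against Bcl2a1b (-0.968) and Bcl2 (-0.951), and Bcl2l11 against Bcl2 (-0.945).

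Called changes were also looked for in the rest of the BCL2 family. Of 16 further family genes 11 passed the filter, and Bik, Hrk, Bok, Bcl2l10 and Bcl2a1c did not. In Null cells 3 of the 11 rose and 2 fell (20.9% and 18.7% of all genes), and in DKO cells 3 rose and 1 fell (20.2% and 19.1%). The interaction was called for 0 of the 11, against 9.45% of all genes. Bnip3l, a mitophagy receptor, rose by 0.48 in Null cells (adjusted p = 0.0303), a call lost without Null control replicates 1 (0.31) or 2 (0.48) and without any 1 of the Null etoposide libraries (0.44 to 0.52). Bad, a BH3-only gene of growth factor signalling, rose by 0.39 in DKO cells (adjusted p = 0.0231), a call lost without DKO control replicate 3 (0.25) and DKO etoposide replicates 1 (0.34) or 2 (0.37). Bmf, a BH3-only gene, was lower in DKO than in Null cells, by 0.36 in control cells (adjusted p = 0.021) and by 0.56 after etoposide (adjusted p = 0.000766). The call of Bmf in control cells was lost without replicates 2 or 3 of Null control (-0.34 and -0.32) or of DKO control cells (-0.34 and -0.29). Bcl2l2, the protector BCL-W, was higher in DKO cells after etoposide by 0.35 (adjusted p = 0.0352), but reads of an overlapping gene could exceed its whole count, and the call was lost without any 1 of the Null etoposide libraries, Null control replicate 2 or DKO etoposide replicates 1 or 3 (0.29 to 0.38). Bcl2l14 held 2 to 4 counts in each control library, 30 to 45 in Null etoposide and 13 to 18 in DKO etoposide libraries. It passed the filter through the etoposide groups and is counted among the called rises, but the sizes of its responses depend on the fit. They ran from 2.20 to 3.19 in Null and from 1.41 to 2.42 in DKO cells over the alternatives. Leaving out 1 library gave 2.20 to 2.56 in Null and 1.41 to 1.77 in DKO cells. After etoposide Bcl2l14 was lower in DKO cells (-1.09, adjusted p = 0.0165), a call lost without Null etoposide replicate 2 (-0.89) or DKO etoposide replicate 3 (-0.97). Bcl2l15 is also counted among the called rises of each genotype. Its calls are not interpreted, because the exons it shares with Gm43064 could account for more than all of its counts.

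Downstream of mitochondria, 5 of 7 apoptosome and caspase genes rose in Null cells and 1 fell (20.9% and 18.7% of all genes), and in DKO cells 4 rose and 1 fell (20.2% and 19.1%). The Null count includes Cycs, which encodes cytochrome c (0.33, adjusted p = 0.0274), whose call was lost with the replicate block (adjusted p = 0.0521), in the fit of the Null groups alone (0.32), and without Null control replicate 1 (0.20) or Null etoposide replicates 1 (0.31) or 2 (0.33). Apaf1, the scaffold of the apoptosome and a p53 target, rose in Null cells from 58.5 ± 1.74 to 95.2 ± 2.71 CPM (SD, n = 3), and in DKO cells from 60.7 ± 2.47 to 78.1 ± 2.53 CPM. Its interaction of -0.34 ± 0.0876 (adjusted p = 0.0292) was the only one called in this list and was lost in 10 of 20 alternatives, 6 of which each left out 1 library: Null control replicate 2, Null etoposide replicates 1 and 3, and DKO etoposide replicates 1, 2 and 3. Casp6, an executioner caspase, rose by 0.74 in Null (adjusted p = 0.000389) and 0.48 in DKO cells (adjusted p = 0.00745), and was 0.40 higher in DKO control than in Null control cells (adjusted p = 0.0342), which was lost in 10 alternatives, those without Null control replicate 1 (0.27), DKO control replicates 2 (0.38) or 3 (0.44), Null etoposide replicate 3 (0.40) and DKO etoposide replicates 1 (0.40) or 2 (0.38) among them. Casp8, the initiator of the death receptor route, rose by 0.40 and 0.49 (adjusted p = 0.00331 and 0.000891). Casp2, a caspase activated by the PIDDosome, fell by 0.68 and 0.93 (adjusted p = 7.28e-05 and 4.44e-06). After etoposide, DKO cells held less Casp2 (-0.43, adjusted p = 0.00262) and less Apaf1 (-0.29, adjusted p = 0.00339) than Null cells.

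Of 5 inhibitors of apoptosis and their antagonists, 2 rose and 1 fell in each genotype. Over all genes the shares were 20.9% and 18.7% in Null and 20.2% and 19.1% in DKO cells. The interaction was called for 0 of the 5, against 9.45% of all genes. Diablo, whose product (SMAC) blocks these inhibitors, rose by 0.60 in Null and 0.60 in DKO cells (adjusted p = 0.000618 and 0.000627). The other riser was Xiap in Null cells (0.21, adjusted p = 0.0258) and Htra2 in DKO cells (0.20, adjusted p = 0.0403). The call of Xiap was lost without Null control replicates 1 (0.20) or 3 (0.21) and without Null etoposide replicates 1 (0.17) or 3 (0.22). It was also lost with no filter on low counts (0.21). Over all alternatives the Xiap response ran from 0.17 to 0.46. That of Htra2 was lost in 12 of 21 alternatives, 8 of which left out 1 library (any of DKO control or DKO etoposide, Null control replicate 2 or Null etoposide replicate 3), with differences of 0.18 to 0.23. The correction for GC content and length gave -0.07 for Htra2 (adjusted p = 0.338), and up to 60.6% of its counts could be reads of Aup1. Birc3, which encodes cIAP2, fell by 0.47 and 0.70 (adjusted p = 0.000153 and 4.7e-06). In control cells Birc2 (by 0.47, adjusted p = 0.0163) and Birc3 (by 0.41, adjusted p = 0.000805) were higher in DKO cells, the call of Birc2 being lost when only the control groups were fitted (0.46, adjusted p = 0.106). After etoposide Birc2 was the one called (0.36, adjusted p = 0.0352), though not without any 1 library of the etoposide groups (0.31 to 0.40).

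Among 6 death receptor and adaptor genes, 2 rose and 1 fell in each genotype, against the same shares of all genes. Fas, a p53-induced death receptor, rose in Null cells from 0.552 ± 0.0574 to 10.7 ± 0.744 CPM, and in DKO cells from 1.46 ± 0.143 to 7.28 ± 0.423 CPM. Its interaction was -1.86 ± 0.183 (adjusted p = 2.66e-05), beside a DKO level that was higher before (1.31, adjusted p = 1.06e-05) and lower after etoposide (-0.55, adjusted p = 0.0056). Tnfrsf10b, the mouse TRAIL receptor, was higher in DKO cells both before (3.52 ± 0.318 against 0.475 ± 0.241 CPM, adjusted p = 2.54e-06) and after etoposide (12.6 ± 0.755 against 2.45 ± 0.057 CPM, adjusted p = 9.03e-06), and its interaction was not called (-0.50, adjusted p = 0.478). Tnfrsf10b rose by 2.33 in Null and 1.83 in DKO cells (adjusted p = 8.54e-06 and 5.98e-05). Fadd, the adaptor of these receptors, fell by 0.94 in Null and 1.14 in DKO cells (adjusted p = 0.00365 and 0.00102).

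Of 7 other death genes known to be induced by p53, 6 were tested. In Null cells 5 rose and in DKO cells 4 did, against 20.9% and 20.2% of all genes, and the interaction was called for 4 (6.39% of all genes lower), all with a smaller rise in DKO cells. Trp53inp1, which promotes p53 activity and autophagy, rose in Null cells from 3.7 ± 0.364 to 342 ± 23.1 CPM, and in DKO cells from 4.09 ± 0.363 to 130 ± 3.8 CPM (interaction -1.53 ± 0.131, adjusted p = 7.82e-06). After etoposide DKO cells held less Trp53inp1 (-1.39, adjusted p = 1.86e-07) and less Pidd1 (-1.08, adjusted p = 1.3e-05). Aen, a nuclease of apoptotic DNA cleavage, had an interaction of -0.95 (adjusted p = 0.00052), Ei24 of -0.86 (adjusted p = 6.11e-05) and Pidd1, the scaffold of the PIDDosome, of -0.79 (adjusted p = 0.00804). Aen stood higher in DKO control cells (0.35, adjusted p = 0.0187), which was lost by library size alone (0.27), in the fit of the 2 groups (0.34) and without Null control replicate 1 (0.32) or DKO control replicate 2 (0.35). Ei24 rose by 2.30 in Null and 1.44 in DKO cells (adjusted p = 2.27e-10 and 3.81e-09). It reached 228 ± 2.01 CPM in Null and 203 ± 7.6 CPM in DKO etoposide cells, a difference that was not called (-0.17, adjusted p = 0.0702), after starting 0.69 higher in DKO cells (adjusted p = 7.39e-06). The study singled out Trp53inp1, Foxo3 and, among the members, Bbc3 in these cells, so their direction is not independent evidence. Zmat3 rose by 2.03 in Null cells (adjusted p = 0.000892), and its DKO response of 0.95 was not called (adjusted p = 0.0623).

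Regulators that act on BCL2 proteins mostly fell in Null cells. Of 6 genes, 1 rose and 5 fell in Null cells (20.9% and 18.7% of all genes), and 1 rose and 3 fell in DKO cells (20.2% and 19.1%). The interaction was called for 0 of the 6, against 9.45% of all genes. Huwe1, a ubiquitin ligase of MCL1, fell from 633 ± 91.6 to 323 ± 10.4 CPM in Null cells (-0.96, adjusted p = 0.0001) and from 626 ± 112 to 380 ± 36.5 CPM in DKO cells (-0.71, adjusted p = 0.00104). Ddit3 (CHOP), a stress transcription factor, fell by 0.94 and 1.26 (adjusted p = 2.67e-05 and 1.8e-06) and after etoposide stood lower in DKO cells (-0.31, adjusted p = 0.0479), a call lost in 12 alternatives, those without Null etoposide replicates 1 (-0.23) or 2 (-0.31), any 1 DKO etoposide library (-0.36 to -0.26), Null control replicate 2 and DKO control replicates 2 or 3 (each -0.31) among them. Usp9x, a deubiquitinase of MCL1, was higher in DKO cells after etoposide by 0.37 (adjusted p = 0.00308). Its fall in DKO cells (-0.30, adjusted p = 0.0106) was lost without DKO etoposide replicate 1 (-0.25, adjusted p = 0.0524) and with the correction for GC content and length (-0.04, adjusted p = 0.663), which also ended the DKO rise of Foxo3, a transcription factor of Bcl2l11 (from 0.35 to 0.18, adjusted p = 0.137). After etoposide Foxo3 was lower in DKO cells (-0.30, adjusted p = 0.0081). The fall of Vdac2, a mitochondrial channel that binds BAK, in Null cells (-0.30, adjusted p = 0.0331) was lost with the replicate block and without Null control replicates 2 (-0.26) or 3 (-0.22) or any 1 Null etoposide library (-0.31 to -0.29).

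**Figure D5:**
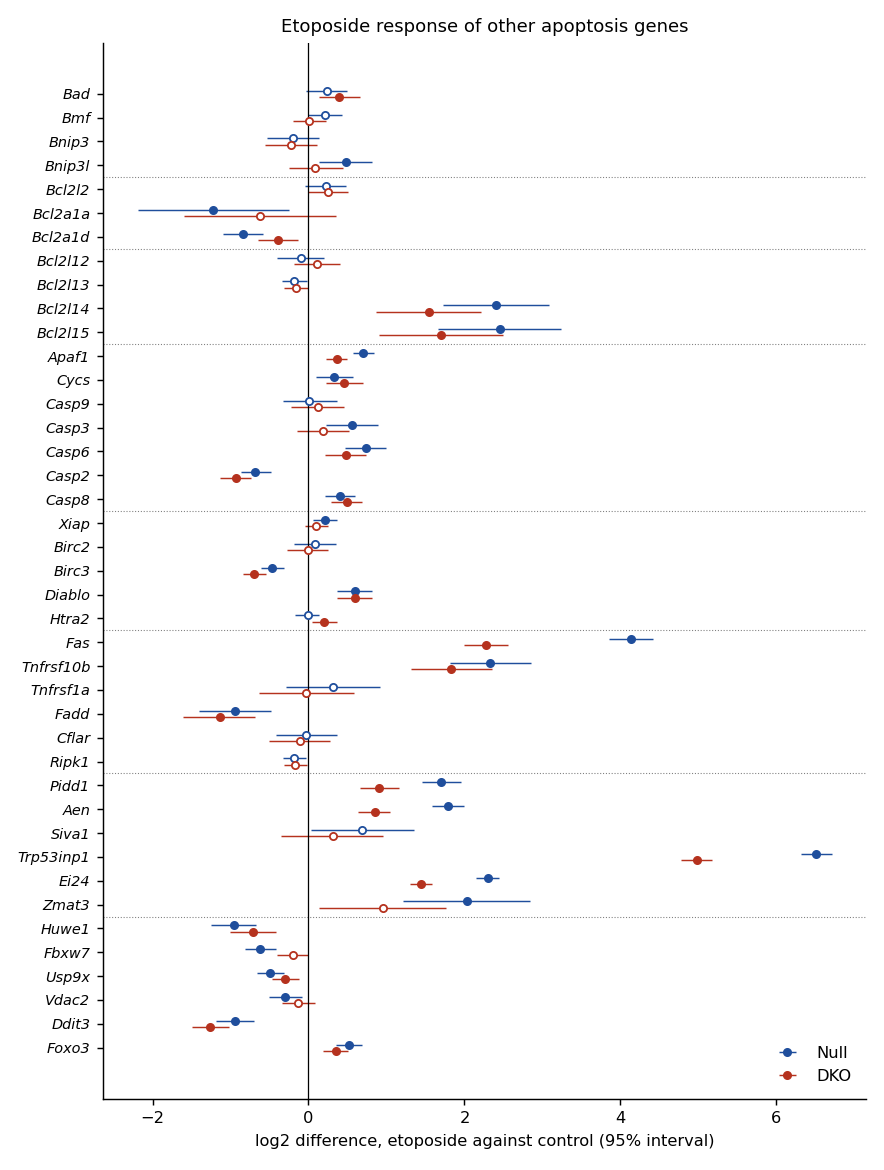
Etoposide response as the log2 difference from control cells (horizontal axis) of the tested genes of the other lists, in Null (blue) and DKO (red) cells, with 95% intervals; filled points passed an adjusted p of 0.05 and dotted lines separate the lists. Trp53inp1 (6.51 and 4.98) and Fas (4.14 and 2.28) show the widest gaps between the genotypes among the called interactions.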

How the data were processed

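The deposited file holds raw counts per gene for 12 libraries that were not pooled. Per the methods of the study, the authors prepared stranded total RNA libraries without ribosomal RNA, sequenced read pairs, aligned them with HISAT2 and counted genes on GENCODE from pairs that mapped uniquely. The methods name HTSeq as the counter, whereas the processing notes of the submitters name featureCounts and the build mm10. Tool versions and the strand setting are not given in the sources used here, and unique mapping lowers counts of genes with near-identical copies. Labels call control cells untreated, the methods name DMSO, and 2 RNA kits are named without the libraries they served.

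Here, filterByExpr of edgeR 4.0.16 kept 18066 genes with 99.96% of the counts, TMM factors (0.939 to 1.03) scaled the library sizes, and log2 CPM with a prior count of 3 was fitted by limma 3.58.1 (limma-trend with robust empirical Bayes, R 4.3.3) with 1 mean per group over all 12 libraries. Tests are two-sided, adjusted by Benjamini-Hochberg over the genes tested and called at an adjusted p under 0.05. The median squared difference between replicates was 3.61 to 5.91 times that of counting alone in Null etoposide cells and 7.44 to 69.2 times in the other groups. RPKM used GENCODE M21 exon lengths. The members and gene lists were chosen with earlier results of these data known. All members were named in every comparison; of each other apoptosis list, the genes called in the interaction, the 2 largest called differences per comparison and Bcl2a1 copies, with a few list neighbours added after their values were seen. Values of Bcl2l15 were left out because of its overlap. A gene of the caspase list is not reported here. Alternatives were other scalings, filters, prior counts, edgeR quasi-likelihood, DESeq2 1.42.0, a replicate block, fits of only the 2 groups compared and fits without each library; a correction for GC content and length and a protector sum without Mcl1 were added after seeing the data.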

Additional observations from a re-analysis of the deposited data

Results flagged for a closer look

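The response to etoposide differed between genotypes, by the interaction term of the fit, for 3 members and 6 genes of the other apoptosis lists. The log2 difference of the DKO response from the Null response was -2.05 for Pmaip1, -1.57 for Bbc3 and -0.61 for Bcl2l11. It was -1.86 for Fas, -1.53 for Trp53inp1, -0.95 for Aen, -0.86 for Ei24, -0.79 for Pidd1 and -0.34 for Apaf1. The call of Apaf1 was lost in 10 of 20 alternatives, the replicate block among them (adjusted p = 0.0723). All 9 had a smaller log2 difference with etoposide in DKO than in Null cells, and the DKO responses of Pmaip1 and Bbc3 were not called. Over all genes the interaction was called lower for 6.39% and higher for 3.07%. Of the 9, Pmaip1, Bcl2l11, Fas, Aen and Ei24 were already higher in DKO control cells, although the call of Pmaip1 there was lost when only the control groups were fitted (0.34, adjusted p = 0.0687), and that of Aen (0.35, adjusted p = 0.0187) was lost in 4 alternatives, 2 of which left out Null control replicate 1 (0.32) or DKO control replicate 2 (0.35).

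The interaction was also called for 6 of the marker and targeted genes, 2 lower and 4 higher, against 6.39% and 3.07% of all genes. Tested were all 8 macrophage markers, 2 of the 8 fibroblast markers and the 2 targeted genes. It was -1.59 for Fcgr1, 0.59 for Csf1r and 0.45 for Spi1 among the macrophage markers, 1.09 for Pdgfrb and -1.52 for Pdgfra among the fibroblast markers, and 1.16 for Tfeb, a targeted gene. The calls of Fcgr1, Csf1r and Tfeb held in all 20 alternatives, that of Spi1 in 16, that of Pdgfrb in 8 and that of Pdgfra in 4. Pdgfra had 0 counts in every control library, 3 to 8 in DKO etoposide and 18 to 28 in Null etoposide libraries. It passed the filter through the Null etoposide group, so its call is not interpreted, and the size of its difference depends on the prior count.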

How the results depend on the processing

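The interactions of Bbc3, Pmaip1 and Bcl2l11 stayed called in all 20 alternatives, with differences of -1.80 to -1.42, -2.09 to -1.96 and -0.66 to -0.54 and adjusted p of at most 0.00341, 6.26e-06 and 0.0232. The number of members called in control cells was 4 and was 1 when only the 2 groups were fitted, where 2073 genes in place of 3490 were called over all. Leaving out 1 library gave 3 to 7 members there, the 7 without DKO control replicate 1, and 2 to 5 after etoposide, the 2 without Null etoposide replicate 1 or without DKO etoposide replicate 3. Over all genes, leaving out 1 library gave 2722 to 4745 calls in control cells and 4723 to 6957 after etoposide, next to 3490 and 6079 in the main fit. Members changed sign only in values that were not called. Leaving out 1 library gave -0.12 to 0.13 for Mcl1 in the Null response, -0.41 to 0.09 in the DKO response and -0.38 to 0.11 in the interaction. It gave -0.67 to 0.18 for Bak1 in the DKO response, -0.23 to 0.61 for Bak1 and -0.12 to 0.24 for Bcl2l1 in the interaction, and -0.12 to 0.05 for Bax between genotypes after etoposide. The correction for GC content and length gave 0.05 for the last. That correction also gave -0.07 for the called DKO response of Htra2, whose counts could hold up to 60.6% of reads from Aup1, and -0.02 for that of Spi1 (0.21, adjusted p = 0.0499). It brought a call of Pmaip1 in DKO cells (0.30, adjusted p = 0.00507) and ended the call of Bcl2l1 there (0.45, adjusted p = 0.0833). The cause of these changes was not tested.

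Without division by exon length the killer to protector log2 ratio was -0.52, -0.27, -0.17 and -0.15 in Null control, DKO control, Null etoposide and DKO etoposide cells. Without Mcl1 it was 2.73, 3.24, 3.56 and 3.31 in the same order, and with the Bcl2a1 copies summed it was -0.19, 0.15, 0.37 and 0.37.

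Replicate numbers are shared between groups in the labels. Deviations of same-numbered libraries correlated at -0.542 to 0.394, and those of differently numbered libraries at -0.494 to 0.58. With 3 libraries per group, these values cannot show whether libraries of a number shared a culture or a batch. With the replicate block, 6 members in place of 8 were called in the Null response, where Bid (-0.24, adjusted p = 0.0602) and Bcl2l1 (0.54, adjusted p = 0.0795) lost their calls; 5, 4, 4 and 3 were called in the DKO response, in control cells, after etoposide and in the interaction. Apaf1 lost its interaction call (-0.34, adjusted p = 0.0723). Over all genes, 6450 were called in the Null response with the block and 7148 without, and 6420 and 7108 in the DKO response. In control cells 3009 and 3490 were called, after etoposide 5394 and 6079, and in the interaction 1310 and 1708.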
